A study of Rattus norvegicus with 40 samples.

Results

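The annexins were followed at the mRNA level in rat liver during carcinogenesis induced by diethylnitrosamine (DEN), a compound that damages DNA once hepatocytes have activated it. The family was taken by symbol, as the rows Anxa1, Anxa2, Anxa3, Anxa4, Anxa5, Anxa6, Anxa7, Anxa11 and Anxa13 of the gene counts, which gave 9 members out of 17337 genes. Levels are given in CPM, the counted read pairs of a gene relative to the total of its library, scaled between libraries by the trimmed mean of M values (TMM).

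The animals were male Fischer 344 rats, aged 7 weeks when weekly intra-peritoneal DEN at 50 mg/kg began, and 8 groups of 4 rats each were sampled. DEN-treated rats gave non-tumoral (NT) liver after 8 weeks of injections, NT liver and tumor nodules after 14 weeks, and NT liver and tumor nodules at 20 weeks, when the 14 weeks of injections had been followed by 6 weeks without DEN. Rats of matching age that received no DEN were the controls at 8, 14 and 20 weeks. The 40 libraries came from 24 rats, since each rat with tumors gave 2 nodules, and the counts of both nodules were added, which left 32 rat-by-tissue values. NT liver at 14 and 20 weeks is liver of a tumor-bearing animal after DEN, so the no DEN rats are the reference without exposure. Rat numbers start with F or H in the labels, which do not say what the letter means, and every no DEN rat is an H.

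Annexins bind acidic phospholipids in the presence of calcium through a conserved core of repeats, while a variable amino-terminal tail docks partner proteins, many of them of the S100 family. They take part in membrane repair, vesicle traffic, fibrinolysis at the cell surface and the resolution of inflammation. In normal liver, several of them are known from bile duct epithelium, endothelium or immune cells as well as from hepatocytes.

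The start-site regions of the genes show how differently the members are built upstream, and 4 of them are shown, those of the pair with the highest fold changes in nodules at 20 weeks (Anxa1 and Anxa2), that of Anxa7, which rose with Anxa2, and that of Anxa11, which was called in no comparison. Each runs 5′ to 3′ over 300 bases, 250 before and 50 after the start given by RefSeq on GRCr8, and capitals mark matches to the motifs named below.
Anxa1 (chr1:227303683-227303982, minus strand): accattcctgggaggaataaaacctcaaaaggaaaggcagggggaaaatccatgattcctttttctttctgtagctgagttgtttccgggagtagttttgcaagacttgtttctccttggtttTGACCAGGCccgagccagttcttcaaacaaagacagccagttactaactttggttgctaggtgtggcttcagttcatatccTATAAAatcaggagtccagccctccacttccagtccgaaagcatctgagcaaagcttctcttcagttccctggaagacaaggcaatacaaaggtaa
Anxa2 (chr8:78986002-78986301, plus strand): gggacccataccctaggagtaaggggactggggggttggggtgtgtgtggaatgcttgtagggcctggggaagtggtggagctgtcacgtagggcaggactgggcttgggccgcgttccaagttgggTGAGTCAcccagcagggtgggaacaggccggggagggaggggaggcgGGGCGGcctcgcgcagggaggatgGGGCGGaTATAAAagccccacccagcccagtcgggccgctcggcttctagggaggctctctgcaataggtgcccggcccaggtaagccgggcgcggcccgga
Anxa7 (chr15:3870790-3871089, plus strand): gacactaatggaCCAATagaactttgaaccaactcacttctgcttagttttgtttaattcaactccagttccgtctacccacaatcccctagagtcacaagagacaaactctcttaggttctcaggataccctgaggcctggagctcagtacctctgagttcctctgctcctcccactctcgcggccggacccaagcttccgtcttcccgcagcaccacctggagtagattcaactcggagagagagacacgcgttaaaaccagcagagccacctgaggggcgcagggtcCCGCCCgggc
Anxa11 (chr16:1419484-1419783, plus strand): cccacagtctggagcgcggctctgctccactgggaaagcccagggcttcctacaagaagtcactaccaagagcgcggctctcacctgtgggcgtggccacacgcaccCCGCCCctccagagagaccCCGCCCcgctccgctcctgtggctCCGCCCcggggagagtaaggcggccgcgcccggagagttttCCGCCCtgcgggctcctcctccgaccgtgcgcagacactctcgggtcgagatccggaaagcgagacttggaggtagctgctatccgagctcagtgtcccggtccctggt

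Both strands were searched for the AP-1 site TGANTCA, the antioxidant response element core TGACNNNGC, the GC box GGGCGG, the CCAAT box CCAAT and the TATA box TATAAA, of which the AP-1 and antioxidant response patterns can overlap. The RefSeq promoter table used held 7 of the 9 members, and the promoters of Anxa6 and Anxa13 were not analysed here. Anxa2 held an AP-1 match at −123 (first base, counted from the start), 2 GC boxes at −76 and −52 and a TATA box at −45. Anxa1 held a TATA box at −46 and an antioxidant response core at −127, and no GC box. Anxa7 held a CCAAT box at −238 and a GC box at 41, and Anxa11 held 4 GC boxes and no other match. Among the members not shown, Anxa5 held 1 GC box, Anxa4 a GC box and a CCAAT box, and Anxa3 held 3 GC boxes. Of all 33469 promoters of this length, 7.33% held the AP-1 pattern, 12.1% the antioxidant response core, 33.1% a GC box, 37.5% a CCAAT box and 14.2% a TATA box. The matches describe the letters of these windows only.

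The libraries held 20528515 to 160622633 counted pairs, with a median of 30477421, and the deepest was an NT library at 20 weeks with 4.08-fold the pairs of the next. Every member was counted in every library, the lowest count being 13 pairs for Anxa13, and all 9 passed the filter on low counts in each comparison. The labelled tissue matched its markers, as all 7 hepatocyte markers (Alb, Apoa1, Ttr, Cps1, Hnf4a, Cyp2e1 and Serpina1) were detected and summed to between 1.14e+05 and 2.72e+05 CPM per rat. NT liver and nodules were each compared with no DEN liver of the same age, nodules were compared with NT liver of the same rats, and the difference from no DEN was compared between time points. A gene was called where the log2 fold change was at least 0.5 in size and the adjusted p (edgeR quasi-likelihood test, Benjamini-Hochberg over all genes tested) at most 0.05. Fold changes are given as log2 values with their SE, and the comparisons of NT liver and of nodules at a given week share the same 4 no DEN rats.

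Most annexins were higher in DEN-treated liver, and none was lower at the calling threshold. In NT liver at 8 weeks, 5 of the 9 members were called higher (Anxa1, Anxa2, Anxa5, Anxa7 and Anxa13), against 16.5% of all genes tested, and 0 were called lower, against 5.21%. In NT liver at 14 weeks, 7 were called higher, against a background of 22.8%, and 0 lower, against 9.85%. At 20 weeks, 7 were again called higher in NT liver, against 14.3%, and 0 lower, against 3.82%. The study's methods give a stricter threshold for NT liver at 8 and 14 weeks, a fold change of 2 with an adjusted p of at most 0.01, without saying whether the fold change is linear or log2. Read as linear, which is a log2 fold change of 1, 2 members, Anxa1 and Anxa2, were higher at 8 weeks, against 7.29% of all genes, and 0 lower, against 0.620%. The same reading left Anxa1, Anxa2, Anxa5, Anxa7 and Anxa13 higher at 14 weeks (background 13.1% higher and 2.10% lower) and at 20 weeks (background 4.89% higher and 0.333% lower), with 0 lower. Read as a log2 fold change of 2, a setting added after the data were seen, it left 0 members higher at 8 weeks (1.81% of all genes), Anxa2 and Anxa13 at 14 weeks (4.77%) and Anxa2 at 20 weeks (1.73%). In nodules, 7 members were called higher than in no DEN liver at 14 weeks (background 23.9% higher and 15.2% lower) and 7 at 20 weeks (background 23.6% higher and 15.2% lower), with 0 lower at either time. In each of the 4 comparisons with 7 calls the members called were Anxa1, Anxa2, Anxa3, Anxa4, Anxa5, Anxa7 and Anxa13, and Anxa6 and Anxa11 were called in none.

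The median log2 fold change of the 9 members against no DEN was 0.51 in NT liver at 8 weeks, 1.71 at 14 weeks and 1.12 at 20 weeks. It was 2.10 in nodules at 14 weeks and 2.18 at 20 weeks, while the median over all genes tested lay between −0.01 and 0.02 in these 5 comparisons. In bulk tissue, more cells of a type and more RNA per cell cannot be told apart, so these values describe the tissue and not any cell in it. Without the rats numbered F, 5, 7 and 6 members were called higher in NT liver at 8, 14 and 20 weeks, against 13.8%, 23.1% and 12.4% of all genes. In nodules, 7 were called higher at both times without them, against 25.8% and 22.9% of all genes at 14 and 20 weeks.

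**Figure D1:**
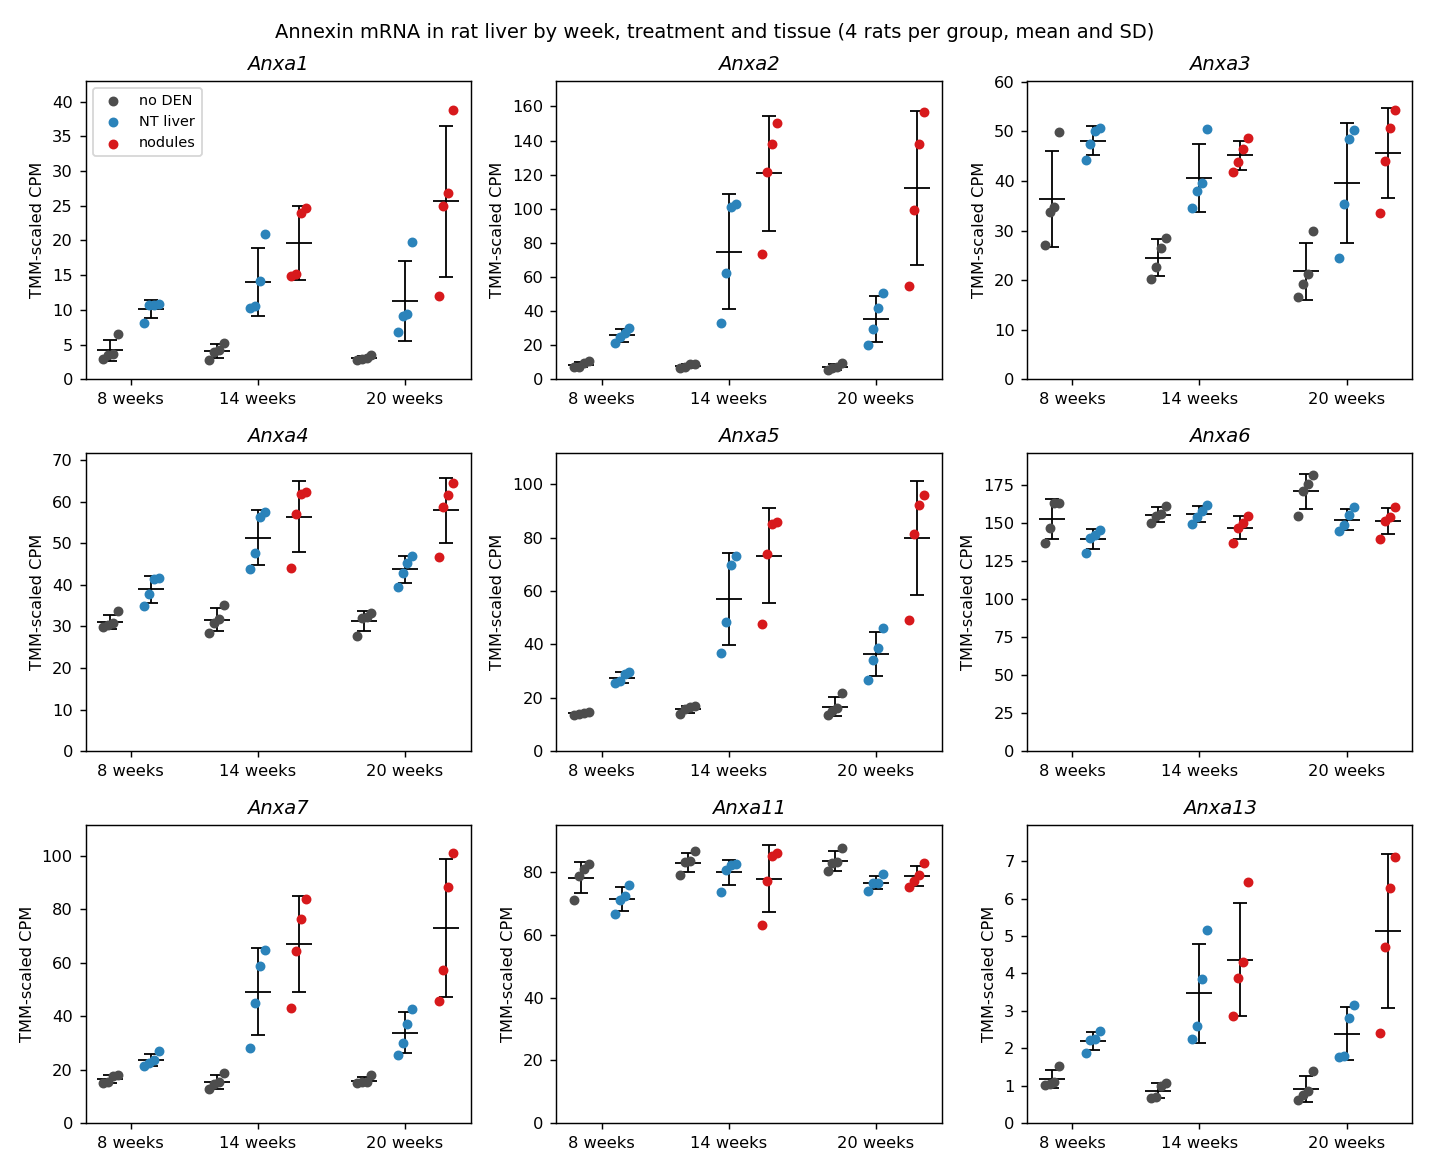
TMM-scaled CPM (linear axis from 0) of the 9 annexins by week, with a point for each of 4 rats, horizontal bars for the group mean and whiskers for the SD. Grey no DEN points of Anxa2 stay at 5.71 to 10.5 CPM while red nodule points reach 157 CPM, and the points of Anxa6 and Anxa11 stay at 130 to 182 and at 63.2 to 87.7 CPM.

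Anxa2, which pairs with S100a10 to hold plasminogen and its activator at the cell surface, showed the largest differences of the family. No DEN rats had 6.95, 7.49, 9.50 and 10.5 CPM at 8 weeks, 6.89, 7.15, 9.01 and 9.08 CPM at 14 weeks, and 5.71, 6.45, 7.15 and 9.81 CPM at 20 weeks. NT liver had 21.2, 24.8, 27.0 and 30.1 CPM at 8 weeks, 32.8, 62.6, 101 and 103 CPM at 14 weeks, and 19.8, 29.5, 42.1 and 50.5 CPM at 20 weeks. Nodules had 73.7, 122, 138 and 151 CPM at 14 weeks and 54.7, 99.1, 138 and 157 CPM at 20 weeks. Every DEN-treated value lay above every no DEN value. The log2 fold change against no DEN was 1.57 ± 0.15 in NT liver at 8 weeks (adjusted p = 5.25e-05), 3.25 ± 0.36 at 14 weeks (adjusted p = 0.000280) and 2.31 ± 0.31 at 20 weeks (adjusted p = 0.00189). In nodules it was 3.89 ± 0.21 at 14 weeks (adjusted p = 7.10e-06) and 3.92 ± 0.30 at 20 weeks (adjusted p = 3.04e-05).

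By group mean, Anxa2 ran from 7.28 ± 1.78 CPM (SD, n = 4) in no DEN liver at 20 weeks, through 8.04 ± 1.18 at 14 weeks and 8.62 ± 1.69 at 8 weeks, to 25.7 ± 3.75 in NT liver at 8 weeks and 35.5 ± 13.5 in NT liver at 20 weeks. NT liver at 14 weeks followed at 74.9 ± 33.7 CPM, then nodules at 20 weeks with 112 ± 45.3 and at 14 weeks with 121 ± 33.6. The ranges of neighbours in this order overlapped, except between no DEN liver and NT liver at 8 weeks. The RefSeq gene table lists Anxa2 and Anxa7 pseudogenes, and read pairs that aligned to several places were dropped by the counting, so the levels of both may be low by an amount that is not known.

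Anxa1, a mediator of glucocorticoid action that signals through formyl peptide receptors, rose in all 5 comparisons with no DEN. NT liver had 8.13, 10.6, 10.7 and 10.8 CPM at 8 weeks, against 2.94, 3.54, 3.66 and 6.48 CPM without DEN, and the groups did not overlap. At 14 weeks, no DEN rats had 2.85, 3.92, 4.24 and 5.25 CPM, NT liver 10.3, 10.6, 14.2 and 20.9 CPM, and nodules 14.8, 15.1, 24.0 and 24.6 CPM. At 20 weeks, no DEN rats had 2.83, 2.99, 3.12 and 3.47 CPM, NT liver 6.87, 9.15, 9.44 and 19.8 CPM, and nodules 12.1, 24.9, 26.8 and 38.7 CPM. NT liver and nodules overlapped at both times, and neither overlapped with no DEN. The log2 fold change was 1.27 ± 0.22, 1.81 ± 0.26 and 1.89 ± 0.32 in NT liver at 8, 14 and 20 weeks (adjusted p = 0.00177, 0.000450 and 0.00388). In nodules it was 2.25 ± 0.23 at 14 weeks (adjusted p = 0.000102) and 3.02 ± 0.30 at 20 weeks (adjusted p = 7.75e-05).

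Anxa5, which binds phosphatidylserine exposed on dying cells and serves as a probe for apoptosis, had 25.5, 26.2, 28.8 and 29.6 CPM in NT liver at 8 weeks against 13.6, 14.0, 14.1 and 14.8 CPM without DEN. At 14 weeks, NT liver had 36.7, 48.5, 69.8 and 73.2 CPM and nodules 47.8, 74.0, 85.3 and 86.0 CPM, above the 13.8, 15.7, 16.7 and 16.8 CPM of no DEN rats. At 20 weeks, NT liver had 26.8, 34.0, 38.6 and 46.3 CPM, nodules 49.1, 81.3, 92.4 and 96.2 CPM, and no DEN rats 13.6, 15.2, 16.1 and 21.6 CPM. At 20 weeks the 3 groups did not overlap with each other. The log2 fold change in NT liver was 0.96 ± 0.08 at 8 weeks (adjusted p = 2.13e-05), 1.89 ± 0.21 at 14 weeks (adjusted p = 0.000141) and 1.16 ± 0.18 at 20 weeks (adjusted p = 0.00244), and in nodules 2.20 ± 0.18 and 2.24 ± 0.21 (adjusted p = 3.06e-05 and 5.71e-05).

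Anxa7, a calcium-dependent membrane fusion protein also called synexin, showed a smaller difference at 8 weeks, with 21.4, 22.5, 23.5 and 26.8 CPM in NT liver against 14.8, 15.4, 17.7 and 18.1 CPM without DEN. At 14 weeks, NT liver had 28.04, 45.1, 58.6 and 64.9 CPM, nodules 42.8, 64.2, 76.4 and 84.0 CPM, and no DEN rats 12.7, 14.4, 15.5 and 18.7 CPM. At 20 weeks, NT liver had 25.3, 30.03, 37.2 and 42.8 CPM, nodules 45.7, 57.4, 88.2 and 101 CPM, and no DEN rats 14.8, 15.3, 15.3 and 17.99 CPM. The ranges of nodules and NT liver overlapped at 14 weeks and were apart at 20 weeks. The log2 fold change in NT liver was 0.51 ± 0.10 at 8 weeks (adjusted p = 0.00281), 1.71 ± 0.25 at 14 weeks (adjusted p = 0.000722) and 1.12 ± 0.16 at 20 weeks (adjusted p = 0.00113), and in nodules 2.10 ± 0.20 and 2.18 ± 0.22 (adjusted p = 7.02e-05 and 7.84e-05). The call at 8 weeks sat at the fold threshold and was lost in 6 of 13 alternative settings, among them those without NT rat H18 (0.44) and without no DEN rats H05 (0.48) and H07 (0.46).

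Anxa13, an annexin of epithelia that anchors to membranes by a lipid group, was at 1.88, 2.21, 2.23 and 2.45 CPM in NT liver at 8 weeks and at 1.03, 1.04, 1.09 and 1.52 CPM without DEN. At 14 weeks, it was at 2.25, 2.61, 3.85 and 5.16 CPM in NT liver, 2.86, 3.89, 4.30 and 6.44 CPM in nodules, and 0.674, 0.707, 0.993 and 1.08 CPM without DEN. At 20 weeks, it was at 1.77, 1.79, 2.81 and 3.17 CPM in NT liver, 2.42, 4.71, 6.30 and 7.11 CPM in nodules, and 0.619, 0.759, 0.849 and 1.40 CPM without DEN. DEN-treated values lay above all no DEN values at each time. The log2 fold change in NT liver was 0.90 ± 0.19, 2.04 ± 0.30 and 1.41 ± 0.31 at 8, 14 and 20 weeks (adjusted p = 0.00431, 0.000250 and 0.00731), and in nodules 2.32 ± 0.29 and 2.49 ± 0.37 (adjusted p = 0.000246 and 0.000543).

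Anxa3 and Anxa4 changed less. Anxa4, abundant in secretory and ductal epithelium, had 43.9, 47.6, 56.4 and 57.4 CPM in NT liver and 44.1, 57.1, 61.8 and 62.4 CPM in nodules at 14 weeks, against 28.4, 30.9, 31.6 and 35.2 CPM without DEN. At 20 weeks, it had 39.6, 42.9, 45.3 and 47.0 CPM in NT liver, 46.7, 58.7, 61.7 and 64.6 CPM in nodules, and 27.7, 31.9, 32.4 and 33.3 CPM without DEN. Treated and untreated values were apart at both times. Its log2 fold change was 0.32 ± 0.08 in NT liver at 8 weeks (adjusted p = 0.0116, under the fold threshold), 0.73 ± 0.10 at 14 weeks and 0.50 ± 0.09 at 20 weeks, and 0.82 ± 0.12 and 0.87 ± 0.11 in nodules. The Anxa4 call in NT liver at 20 weeks lay at the fold threshold and was lost in 9 of 13 alternative settings, 5 of them leaving out a rat (H26 or H28 with DEN, H13, H15 or H16 without).

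Anxa3 overlapped between groups at 8 weeks, with 44.3, 47.6, 50.1 and 50.7 CPM in NT liver and 27.0, 33.8, 34.8 and 49.9 CPM without DEN. At 14 weeks, NT liver had 34.6, 37.9, 39.5 and 50.4 CPM, nodules 41.8, 43.9, 46.5 and 48.6 CPM, and no DEN rats 20.2, 22.7, 26.6 and 28.5 CPM. At 20 weeks, NT liver had 24.5, 35.3, 48.5 and 50.3 CPM, nodules 33.6, 44.1, 50.8 and 54.3 CPM, and no DEN rats 16.6, 19.3, 21.3 and 29.99 CPM. NT liver and no DEN overlapped at 20 weeks, while nodules lay above no DEN at both times. Mean Anxa3 in no DEN liver was 36.4 ± 9.62 CPM at 8 weeks, 24.5 ± 3.76 at 14 weeks and 21.8 ± 5.80 at 20 weeks, a difference with age that was not tested. The log2 fold change was 0.40 ± 0.15 in NT liver at 8 weeks (adjusted p = 0.0652), 0.76 ± 0.14 at 14 weeks and 0.88 ± 0.26 at 20 weeks (adjusted p = 0.0367), and 0.86 ± 0.12 and 1.05 ± 0.19 in nodules. Without no DEN rat H05, which had the 49.9 CPM, Anxa3 was called higher in NT liver at 8 weeks (log2 fold change 0.59, adjusted p = 0.00255), and in no other of the 13 alternative settings. The call in NT liver at 20 weeks was lost in 8 of 13 alternative settings, including those without DEN-treated rat F03, H26 or H28 and without no DEN rat H14, H15 or H16, where the adjusted p ran from 0.0575 to 0.0954.

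Anxa6, an annexin with a duplicated core that binds membranes of the endocytic pathway, and Anxa11, which tethers RNA granules to lysosomes, differed little between groups. Anxa6 lay between 130 and 182 CPM in all 32 values and Anxa11 between 63.2 and 87.7 CPM, and treated and untreated ranges of the same week overlapped except for Anxa11 in NT liver at 20 weeks, with 74.0 to 79.4 CPM against 80.3 to 87.7 CPM. Their log2 fold changes against no DEN ran from −0.19 ± 0.09 (Anxa6, nodules at 20 weeks, adjusted p = 0.105) to 0.03 ± 0.06 (Anxa6, NT liver at 14 weeks, adjusted p = 0.664). For Anxa11 they ran from −0.14 ± 0.07 (NT liver at 8 weeks, adjusted p = 0.176) to −0.03 ± 0.06 (NT liver at 14 weeks, adjusted p = 0.751).

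**Figure D2:**
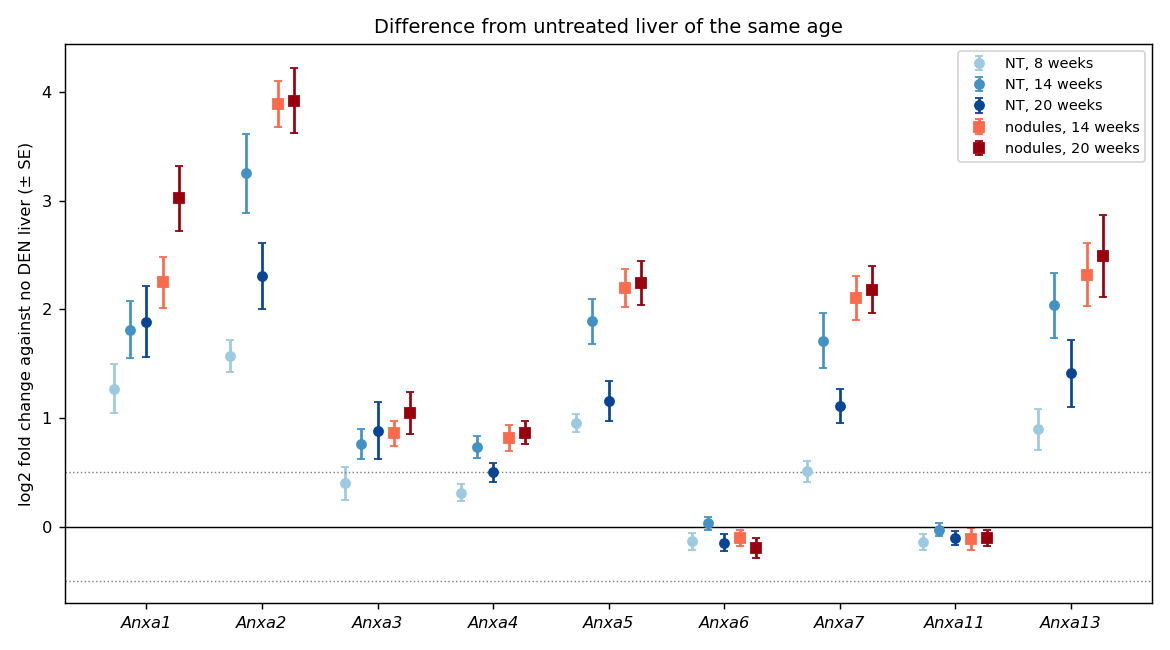
log2 fold change against no DEN liver of the same age for each annexin, with SE bars (n = 4 rats per group); circles are NT liver, squares are nodules, and dotted lines mark the fold threshold of 0.5 in either direction. Anxa2 has the highest symbols, up to 3.92 in nodules at 20 weeks, and the symbols of Anxa6 and Anxa11 sit between −0.19 and 0.03.

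To see whether the response to DEN grew with further injections, the difference from no DEN in NT liver was compared between 14 and 8 weeks. It was larger at 14 weeks for 3 members, against 8.96% of all genes called in either direction, namely Anxa2 by 1.68 ± 0.41 on the log2 scale (adjusted p = 0.0225), Anxa5 by 0.94 ± 0.23 (adjusted p = 0.0209) and Anxa7 by 1.20 ± 0.28 (adjusted p = 0.0177). Anxa13 (1.14 ± 0.37, adjusted p = 0.0606) and Anxa4 (0.42 ± 0.13, adjusted p = 0.0544) missed the threshold. Anxa1 differed by 0.54 ± 0.37 (adjusted p = 0.365). In a fit over all 8 groups no member passed (1.30% of all genes), with adjusted p = 0.0614 for Anxa2, 0.0991 for Anxa5 and 0.0627 for Anxa7. DESeq2 called 5 (13.6% of all genes in either direction). Leaving out NT rat F06, the lowest of its group in Anxa2, Anxa5 and Anxa7, also gave 5 (15.6% of all genes), with Anxa4 and Anxa13 added. Leaving out NT rat H23 added Anxa13 (9.14% of all genes), and leaving out no DEN rat H10 added Anxa4 (5.30% of all genes). Without NT rat H21, Anxa2 and Anxa7 were left (4.73% of all genes), with Anxa5 at 0.79 (adjusted p = 0.0521).

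After DEN was stopped, the difference in NT liver at 20 weeks was set against that at 14 weeks. The change was −0.94 ± 0.50 on the log2 scale for Anxa2, −0.73 ± 0.30 for Anxa5, −0.62 ± 0.45 for Anxa13, −0.59 ± 0.31 for Anxa7, −0.23 ± 0.13 for Anxa4 and 0.07 ± 0.45 for Anxa1. None of the 9 members passed the test, against 0.738% of all genes, and 1 member, Anxa5 (adjusted p = 0.236), had an unadjusted p under 0.05, as did 1912 of 11245 genes. DESeq2 called 0 members as well, against 3.53% of all genes. In nodules, the same comparison of 20 with 14 weeks gave no call among the members, against 0.0862% of all genes, with adjusted p = 1.00 for all 9. None had an unadjusted p under 0.05 (3.26% of all genes), and DESeq2 called 0 (0.203% of all genes). The largest of these differences was that of Anxa1, 0.76 ± 0.41, and with nodule 1 of each rat alone it was −0.16.

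Nodules were then compared with NT liver of the same rats. At 14 weeks, 0 members were called higher or lower, as were 0.00% of all genes in either direction (0.00% higher and 0.00% lower), and the member differences ran from −0.11 ± 0.08 for Anxa6 to 0.67 ± 0.35 for Anxa2 (adjusted p = 0.462). Without the rat number as a block, none of the members had an unadjusted p under 0.05, against 11.8% of all genes. DESeq2 called 0, against 0.350% of all genes in either direction. With the rat number as a block, 0 were called too, against 0.00% of all genes higher and 0.00% lower, but 4 of the 9 members had an unadjusted p under 0.05, as did 2518 of 11466 genes. The blocked differences of these 4 were 0.75 ± 0.16 for Anxa2, 0.48 ± 0.10 for Anxa1, 0.45 ± 0.11 for Anxa7 and 0.35 ± 0.08 for Anxa5, each with an adjusted p of 0.167.

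At 20 weeks, 0 members were called without the block, against 0.00% of all genes higher and 0.00% lower, although 6 members and 2767 of 11546 genes had an unadjusted p under 0.05, and DESeq2 called 5 higher (5.28% of all genes). The log2 differences were 1.63 ± 0.34 for Anxa2 (adjusted p = 0.0949), 1.16 ± 0.38 for Anxa1 (adjusted p = 0.131), 1.10 ± 0.22 for Anxa5 (adjusted p = 0.0949), 1.09 ± 0.33 for Anxa13 (adjusted p = 0.117) and 1.08 ± 0.25 for Anxa7 (adjusted p = 0.0984). With the rat number as a block, 4 members were called higher in nodules, against a background of 9.21% higher and 5.46% lower. These were Anxa2 with 1.61 ± 0.08 (adjusted p = 8.39e-08), Anxa5 with 1.08 ± 0.09 (adjusted p = 3.51e-06), Anxa7 with 1.04 ± 0.08 (adjusted p = 3.94e-06) and Anxa13 with 1.08 ± 0.21 (adjusted p = 0.00492). Anxa4 differed by 0.37 ± 0.07 (adjusted p = 0.00271), under the fold threshold, and Anxa1 by 1.17 ± 0.31 (adjusted p = 0.0638). Without the block, leaving out rat H25 gave 4 calls (Anxa2, Anxa5, Anxa7 and Anxa13, against 2.20% of all genes higher), and leaving out any other rat gave 0 (0.00% of all genes). Rat H25 was the lowest of its group in Anxa1, Anxa2, Anxa3, Anxa4, Anxa5, Anxa7 and Anxa13, in NT liver and in nodules alike.

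The single nodules of a rat differed from each other in some annexins and hardly in others, with the 40 libraries scaled together. Anxa2 was higher in nodules than in the NT liver of the same rat in 7 of 8 nodules at 14 weeks and in 8 of 8 at 20 weeks. In rat H28, for example, NT liver had 52.5 CPM and the nodules 105 and 206 CPM, and in rat H25 NT liver had 20.6 CPM and the nodules 81.9 and 39.7 CPM. Anxa5 was higher in 8 of 8 nodules at both times, and Anxa4 and Anxa7 in 7 of 8 at 14 weeks and 8 of 8 at 20 weeks. Anxa1 was higher in 7 of 8 nodules at each time, but the nodules of a rat lay up to 2.85-fold apart at 20 weeks, in rat H26 with 20.0 and 57.0 CPM against 9.82 CPM in NT liver. Nodule 1 of rat H28, with 14.8 CPM of Anxa1, was below its NT liver with 20.6 CPM, while nodule 2 had 37.5 CPM. Anxa13 reached 2.66-fold between the nodules of rat F03, with 3.74 and 9.94 CPM. Anxa6 was higher than in NT liver in 2 of 8 nodules at 14 weeks and 3 of 8 at 20 weeks, and its nodules differed by at most 1.19-fold. For orientation, the median fold between both nodules of a rat over 10153 genes was 1.09 to 1.27.

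**Figure D3:**
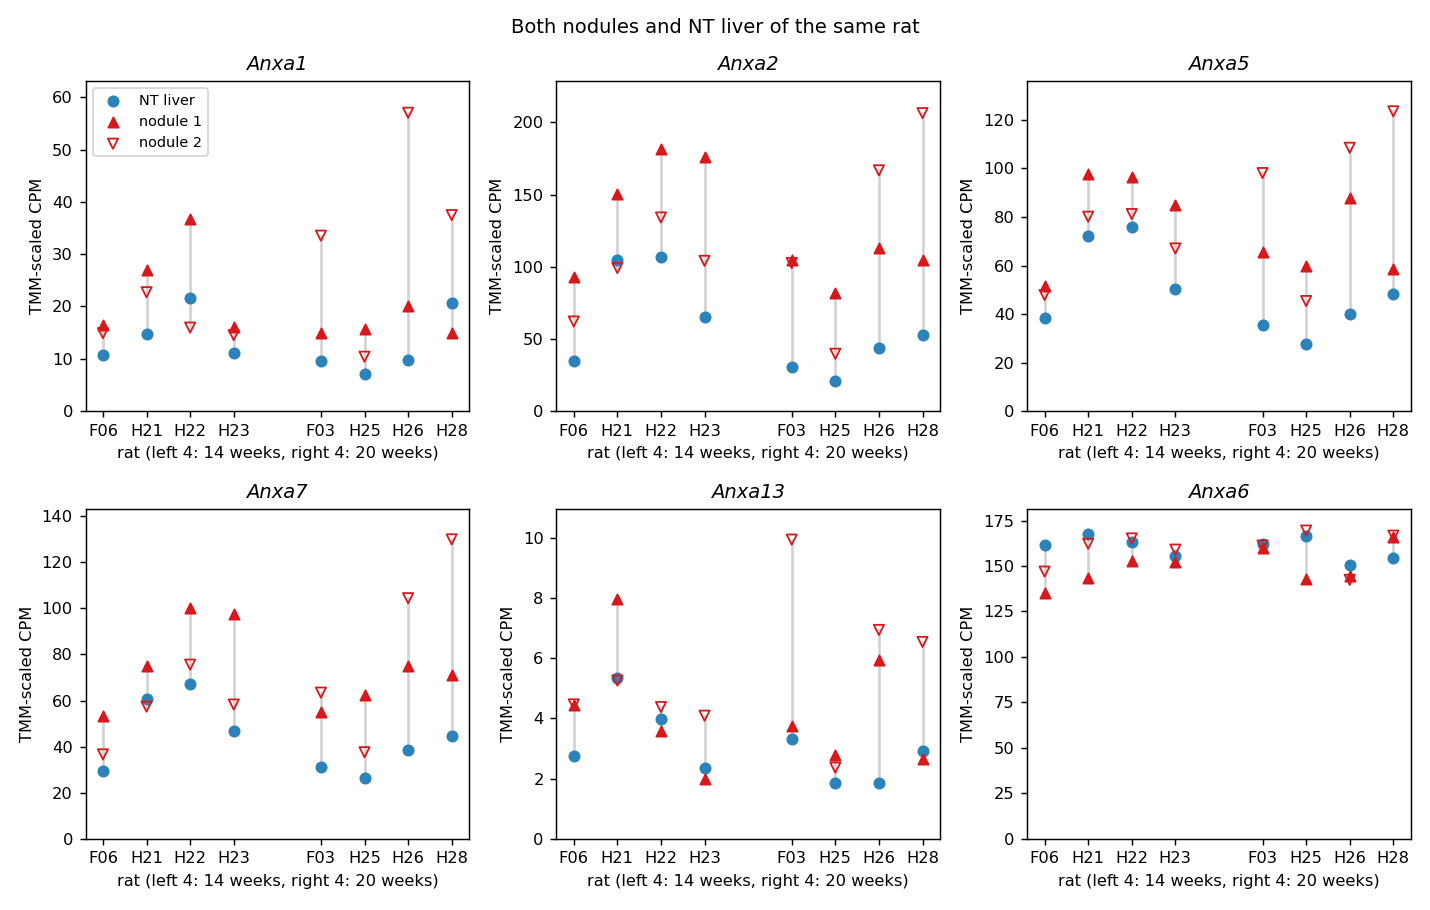
TMM-scaled CPM (linear axis from 0) in NT liver (blue circles), nodule 1 (filled triangles) and nodule 2 (open triangles) of each rat, with 4 rats at 14 weeks on the left and 4 at 20 weeks on the right of each panel; grey lines join the values of a rat. Triangles of Anxa5 lie above the circle in every rat, and those of Anxa1 are spread widest in rat H26, at 20.0 and 57.0 CPM.

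Partner genes of the annexins were counted from a list of 13, of which Fpr2 had no row in the files and Fpr1, a formyl peptide receptor of myeloid cells that binds Anxa1, was too low to be tested and at 0 in every no DEN rat. Of the 11 tested, 8, 9 and 8 were called higher in NT liver at 8, 14 and 20 weeks, against 16.5%, 22.8% and 14.3% of all genes. In nodules, 9 were called higher at each time, against 23.9% and 23.6% of all genes at 14 and 20 weeks. Their median log2 fold change was 1.12, 1.32 and 0.99 in NT liver and 1.58 and 1.58 in nodules. S100a10, the partner of Anxa2, lay between 2.74 and 5.49 CPM in no DEN rats, between 9.32 and 38.5 CPM in NT liver and between 22.2 and 69.7 CPM in nodules. It rose by 1.64 ± 0.12, 2.73 ± 0.28 and 1.78 ± 0.26 in NT liver at 8, 14 and 20 weeks and by 3.37 ± 0.10 and 3.43 ± 0.32 in nodules, on the log2 scale. S100a11, which binds the tail of Anxa1, rose by 1.41 ± 0.25, 2.27 ± 0.20 and 1.45 ± 0.36 in NT liver and by 3.22 ± 0.23 and 2.93 ± 0.38 in nodules. Its levels were low, at 0.323 to 0.843 CPM in no DEN rats, 1.17 to 3.92 CPM in NT liver and 2.35 to 8.51 CPM in nodules.

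S100a6, which binds Anxa11 among others, rose by 2.65 ± 0.27 in nodules at 14 weeks and by 2.45 ± 0.30 at 20 weeks, while Anxa11 itself was not called. Sri (sorcin), which binds Anxa7, rose by 1.12 ± 0.09, 1.65 ± 0.11 and 0.99 ± 0.14 in NT liver. Ahnak, a scaffold that binds S100a10 with Anxa2, rose by 1.58 ± 0.08 and 1.61 ± 0.12 in nodules, and Dysf (dysferlin), a membrane repair protein, by 1.33 ± 0.12 and 1.58 ± 0.23. S100a4 and Hltf were also called higher in all 5 comparisons with no DEN, and Plat, the tissue plasminogen activator, in 4. Plg, the plasminogen made by hepatocytes, fell by 0.85 ± 0.09 in nodules at 14 weeks (adjusted p = 7.37e-05) and by 0.78 ± 0.16 at 20 weeks (adjusted p = 0.00260). Pdcd6, a calcium sensor that binds Anxa7 and Anxa11, was at −0.10 to 0.03 in all 5 comparisons and was called in none. Against NT liver of the same rats at 20 weeks, no partner was called without the block, where 0.00% of all genes were called. With the block, 6 of 11 were called higher, against 9.21% of all genes, and Plg lower, against 5.46%. S100a10 led with 1.61 ± 0.10 (adjusted p = 8.77e-07), then S100a11 with 1.499 ± 0.18 (adjusted p = 0.000106), and Plg was at −0.52 ± 0.13 (adjusted p = 0.00899). At 14 weeks none was called with or without the block, as were 0.00% of all genes.

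Markers of other liver cells were counted in the same comparisons, in which 16.5%, 22.8% and 14.3% of all genes were called higher in NT liver at 8, 14 and 20 weeks, and 23.9% and 23.6% in nodules. Of 6 biliary markers in the files (Krt19, Epcam, Sox9, Cldn7, Cftr and Spp1, with no row for Krt7), 3 were called higher in NT liver at 8 weeks and 6 of 6 in each of the other comparisons with no DEN. Their summed level was 17.7 to 25.7 CPM in no DEN rats, 31.2 to 39.9 CPM in NT liver at 8 weeks, 42.4 to 93.7 CPM at 14 weeks and 38.2 to 60.8 CPM at 20 weeks, and 71.6 to 125 CPM and 75.7 to 190 CPM in nodules at 14 and 20 weeks. Endothelial markers were called higher for 5 of 6 in all 5 comparisons, with sums of 63.5 to 157 CPM without DEN and 168 to 230 CPM with DEN. Stellate cell and myofibroblast markers were called higher for 5, 5 and 3 of the 6 tested in NT liver at 8, 14 and 20 weeks and for 4 of 6 in nodules at either time, with sums of 169 to 256 CPM without DEN and 230 to 467 CPM with DEN, Pdgfrb was called lower in NT liver at 14 weeks, and Col1a2 was at 0 counts in every library. Their part in the annexin values was not tested.

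Macrophage markers gave 1 of 6 called higher at 8 and 14 weeks (Cd68) and 2 of 6 at 20 weeks (Cd68 and Adgre1), near the share of all genes at 8 and 14 weeks, with sums of 219 to 658 CPM without DEN and 261 to 659 CPM with DEN. Lymphocyte markers gave 5 of 5 tested in NT liver at 8 weeks, 2 of 3 at 14 weeks, 2 of 4 at 20 weeks and 4 of 5 and 3 of 5 in nodules, with sums of at most 5.88 CPM and no row for Cd79a. Of the neutrophil markers, S100a8 and S100a9 were tested, and 2, 2 and 1 were called in NT liver and 1 and 0 in nodules at 14 and 20 weeks, with Mpo at 0 in no DEN liver at 14 and 20 weeks. Hepatocyte markers were called lower for 2, 4 and 1 of 7 in NT liver at 8, 14 and 20 weeks, against 5.21%, 9.85% and 3.82% of all genes. In nodules, 5 of 7 were called lower at each time, against 15.2% of all genes, and Apoa1 was called higher from 14 weeks on. The part of these cells in the annexin values was not tested either. Between nodules and NT liver, no marker of any list was called without the block, where 0.00% of all genes were called. With it, at 20 weeks, 4 of 6 biliary markers (Cldn7, Epcam, Krt19 and Sox9) and Col1a1 were called higher, against 9.21% of all genes. Lower were 4 of 7 hepatocyte markers (Alb, Cps1, Cyp2e1 and Ttr) and the macrophage marker Marco, against 5.46%. At 14 weeks none was called with the block, as were 0.00% of all genes.

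Genes whose levels ran most like those of a member were sought over the 32 rat-by-tissue values, among 10057 genes with a mean of at least 1 CPM, as a description by Pearson's r of log2 CPM. The values share rats, tissues and treatment, so r was also taken on deviations from the group means. Anxa2 ran closest to Slc25a4, a mitochondrial ADP/ATP carrier (r = 0.992, within groups 0.941), Rcn1 and Acot9. Anxa4 ran closest to Epcam, an epithelial adhesion protein of bile duct and progenitor cells (r = 0.980, within groups 0.889), and Anxa5 to Slc25a4 (r = 0.980), Epcam (r = 0.979) and Cd24 (r = 0.979). For Anxa7 the closest were Ptgr1, a prostaglandin and leukotriene reductase (r = 0.986, within groups 0.908), Ndrg1 and Slc48a1. Anxa1 ran closest to Gpc3, the glypican used as a marker of hepatocellular carcinoma (r = 0.970, within groups 0.871), followed by Ezr and Lgals3bp. Gpc3 was low, at 0.247 to 0.711 CPM without DEN. At 14 weeks its NT liver (2.33 to 6.60 CPM) and nodules (3.25 to 7.10 CPM) overlapped. Anxa13 ran closest to Cd9 (r = 0.956), Cxcl16 and Cd44, and Anxa3 to Plvap, a protein of endothelial diaphragms (r = 0.928), Grn and Tspan13. The members that were not called gave a lower r over the 32 values. The closest were Nucb1 (r = 0.764, within groups 0.708), Sdc1 and Enpp3 for Anxa6. For Anxa11 they were Rnf10 (r = 0.857, within groups 0.818), LOC361635 and Pfkl. Within groups, Anxa11 with Rnf10 was near Anxa13 with Cd9 (0.824) and Anxa3 with Plvap (0.824).

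Among the members, Anxa2, Anxa4, Anxa5 and Anxa7 ran together, with r between 0.968 and 0.981 over the 32 values and between 0.763 and 0.877 within groups. Anxa1 joined them less closely (r = 0.954 with Anxa2, within groups 0.724). Anxa13 did so over the 32 values (r = 0.922 with Anxa2), but within groups r was 0.437 with Anxa2 and 0.243 with Anxa7. Anxa3 had a lower r with Anxa2 over the 32 values (0.697), and within groups (0.397) it was near Anxa13. Anxa11, without a DEN difference, had r = −0.005 with Anxa7 over the 32 values but 0.566 within groups. Anxa6 ran closest to Anxa11 (r = 0.674, within groups 0.505). S100a10 followed Anxa2 with r = 0.988 and within groups with r = 0.876, and S100a11 followed Anxa1 with r = 0.929 and 0.579 within groups. The spread between rats differed from member to member. The coefficient of variation of Anxa2 was 14.6% in NT liver at 8 weeks, 45.0% at 14 weeks and 38.1% at 20 weeks, that of Anxa4 ran from 7.38% to 15.1% over the 5 groups of DEN-treated liver, and that of Anxa6 from 3.04% to 8.46% over all 8 groups.

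**Figure D4:**
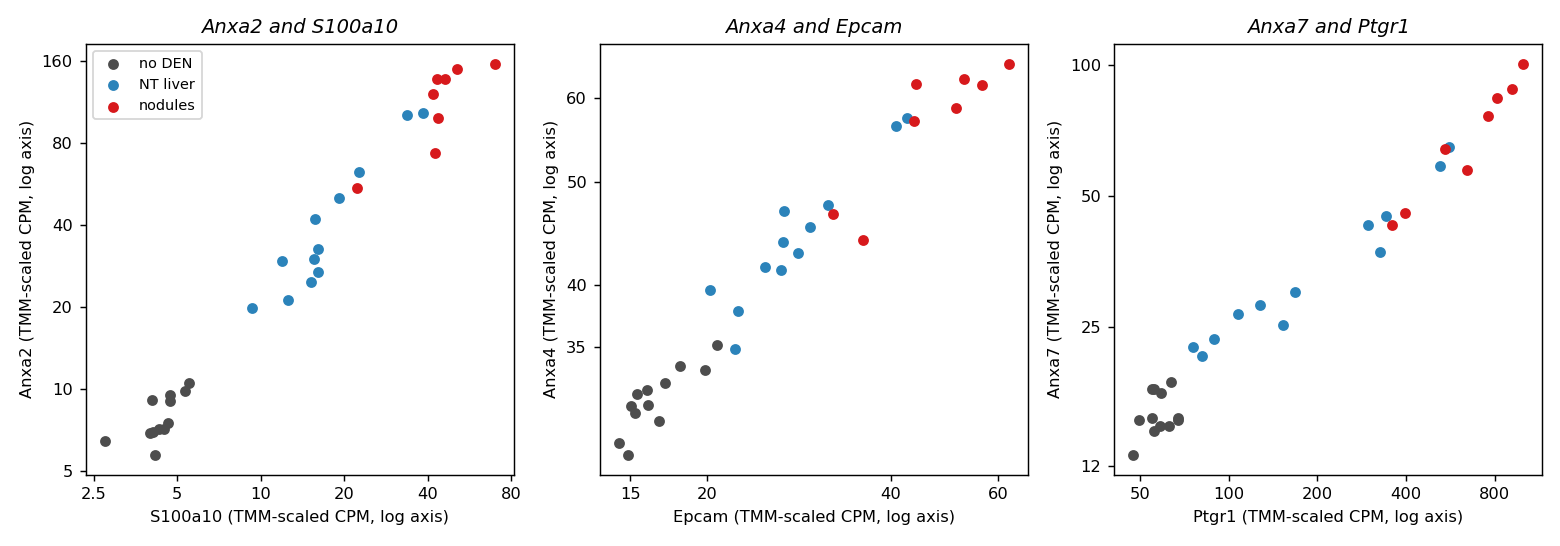
TMM-scaled CPM of Anxa2 against S100a10, Anxa4 against Epcam and Anxa7 against Ptgr1, on log axes, with a point for each of the 32 rat-by-tissue values (grey no DEN, blue NT liver, red nodules). The points of each panel rise together from no DEN to nodules, with NT liver and nodules overlapping, and r of log2 CPM was 0.988, 0.980 and 0.986.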

How the data were processed

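Whole-tissue mRNA was measured in 40 libraries from a stranded kit. The values used were the raw counts deposited by the authors, who aligned read pairs to rn6 with STAR 2.7.1a and counted exonic pairs with HTSeq on the reverse strand, taking pairs fully inside the exons of 1 gene and dropping pairs with several alignments. Pairs left uncounted, 32.8% to 45.4%, were kept out of library sizes. Groups came from the labels, and each rat was a replicate. TMM scaling used 11596 genes. Tests were fitted in edgeR 4.0.16 (R 4.3.3) on the compared groups only, after filterByExpr, 2-sided, and tested on simulated data. The threshold was that stated for tumors, with its 0.5 read as log2, and the stricter one stated for NT liver at 8 and 14 weeks was an alternative, with its fold change of 2 read as linear or as log2, since the scale is not given. The labels give NT liver and nodules of an animal a common rat number, and their deviations from group means correlated at 0.367 to 0.538 over 8 rats, so rat was a block in a parallel fit. Alternatives were DESeq2 1.42.0, other scaling, no filter, all 8 groups in 1 fit, single nodules and left-out rats. At the lowest depth 1 CPM is 20.5 pairs, and without molecular identifiers pairs are not independent molecules. Promoters came from RefSeq on GRCr8, whose coordinates do not apply to rn6. Named genes were all members, a partner list, marker lists and the 3 genes most like each member. Members and lists were chosen with earlier results of these data known. Levels were not compared between genes.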

Additional observations from a re-analysis of the deposited data

Results flagged for a closer look

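Among 72 groups of 4 rats (9 members in 8 groups), 3 held a rat set apart from the other 3 by a gap, as a share of the range, above Dixon's critical value, and chance gives such a gap in about 1 in 20 groups. Rat H17 had the lowest Anxa1 in NT liver at 8 weeks, 8.13 CPM. Rat H15 had the highest Anxa7 among no DEN rats at 20 weeks, 17.99 CPM. Rat H05 had the highest Anxa13 among no DEN rats at 8 weeks, 1.52 CPM.

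The difference between NT and no DEN liver was larger at 14 than at 8 weeks, by edgeR's test of that difference itself, for Anxa2 (1.68 on the log2 scale), Anxa5 (0.94) and Anxa7 (1.20).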

How the results depend on the processing

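The 7 members called in NT liver at 14 weeks and in nodules at both times against no DEN were called in every alternative run with that threshold. In NT liver at 8 weeks, the stricter threshold (log2 fold change of at least 1, adjusted p of at most 0.01) left 2 members in place of 5 (7.29% of all genes in place of 16.5%). Leaving out a rat at 8 weeks gave 4 to 5 (14.0% to 17.7% of all genes called higher). A log2 fold change of at least 2 left 0, 2 and 1 members at 8, 14 and 20 weeks (1.81%, 4.77% and 1.73% of all genes). Without no DEN rat H05, Anxa3 was called (0.59) and Anxa7 was not (0.48). In NT liver at 20 weeks, leaving out a rat gave 5 to 7 (9.18% to 15.1% of all genes called higher). Between nodules and NT liver at 20 weeks, DESeq2 and the fit over all 8 groups each called 5 members higher in place of 0 (5.28% and 6.92% of all genes). Nodule 1 alone gave 2 (1.03%), nodule 2 alone gave 0 (0.00%), the replicate block gave 4 (9.21%), and leaving out a rat gave 0 to 4 (0.00% to 2.20%). At 14 weeks, the other comparison fitted with the block, it called 0 members, as without it. For the growth of the difference in NT liver from 8 to 14 weeks, DESeq2 called 5 in place of 3 (13.6% of all genes in place of 8.96%). For the same difference, the fit over all 8 groups called 0 (1.30%), and leaving out a rat gave 2 to 5 (4.73% to 16.5%). The cause of these shifts was not tested.

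Reversals of direction were all between values that were not called. Anxa11 was at 0.0013 in nodules against no DEN and 0.0067 in nodules against NT liver at 14 weeks without the rats numbered F, and without single rats it ran from −0.15 to 0.0013 and from −0.10 to 0.0067. At 20 weeks, nodules against NT liver gave −0.0522 for Anxa11 with nodule 1 alone and −0.0141 to 0.039 without single rats, and 0.0256 for Anxa6 with nodule 2 alone. The change of the NT difference from 14 to 20 weeks ran from −0.34 to 0.33 for Anxa1 and from −0.0134 to 0.32 for Anxa3 without single rats, and the change in nodules was −0.16 for Anxa1 with nodule 1 alone.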

Other observations

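The files hold rows for another pair of annexins outside the 9 members. Anxa8, an annexin of squamous and ductal epithelium, was at 0.476 to 1.17 CPM in no DEN liver, 0.518 to 2.83 CPM in NT liver and 1.65 to 5.04 CPM in nodules. It differed from no DEN by 1.27 ± 0.28 in NT liver at 8 weeks (adjusted p = 0.00544), 1.31 ± 0.21 at 14 weeks (adjusted p = 0.000413) and 0.96 ± 0.43 at 20 weeks (adjusted p = 0.117), and by 1.86 ± 0.22 and 2.45 ± 0.36 in nodules (adjusted p = 0.000181 and 0.000459), by edgeR on the log2 scale. Anxa10 was at no more than 0.192 CPM in any rat and was too low to be tested.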
